A study of Mus musculus with 6 samples.

Results

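The Runx factors are a small family of transcription factors that bind DNA through the Runt domain, and they were examined here together with Cbfb in IL-2-activated CD8+ T cells (CD8-TC) of WT and Runx3-/- mice. Of the 4 genes of the family and its partner, Runx1, Runx3 and Cbfb each had 1 row of the expression table to themselves, out of 19938 genes with such a row. No row was paired with Runx2 alone, so its expression was not analysed here. The cells came from spleens of ICR mice labelled as males aged 6 weeks, 3 WT (Runx3 +/+) and 3 Runx3 -/-, and each mouse gave 1 array of total RNA. WT cells were selected on anti-CD8 beads, stimulated through the T cell receptor with anti-CD3 and anti-CD28 for 2 days and then grown with IL-2 (100 units per ml) over 4 further days. The cultures of Runx3-/- cells were run alike but the cells were also sorted against CD11c+CD8+ dendritic cells beforehand and against CD4+CD8- cells afterwards, so that genotype and sorting cannot be told apart. Which part of Runx3 the allele disrupts is not stated in the sources used. The comparison asks how the other members of the family are expressed when Runx3 has been lost.

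Runx proteins activate some genes and repress others, and each binds DNA stably only as a dimer with Cbfb, which does not touch DNA itself. In the T cell lineage Runx1 is used from early progenitors onward and in helper cells, whereas Runx3 is the factor of cytotoxic cells, where it silences Cd4 and the helper factor ThPOK. Runx2 is best known as the regulator of bone formation. Each Runx gene can be transcribed from a distal and a proximal promoter, and the mRNAs from both share most of their exons.

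The DNA around the starts of these genes was read first, since the 3 Runx genes share a stretch there that holds RUNX motifs. The RefSeq promoter windows (build GRCm38.p6) run from 250 bases before to 50 bases after the first base of a transcript, and a RUNX motif was counted on either strand. Of the 4 variants of the canonical motif, those without an inner CpG are TGTGGT and, with another last base, TGTGGC, and those with an inner CpG are TGCGGT and, with the other last base, TGCGGC. The longest stretch common to the distal window of Runx1, the distal window of Runx3 and the window of Runx2 was 18 bases long. It is shown with 6 bases on either side, in the direction of transcription, with RUNX motifs in capitals (they lie on the opposite strand except for the last in Runx2). The pieces are chr16:92826025-92826054 on the minus strand for Runx1, chr17:44814583-44814612 on the minus strand for Runx2 and chr4:135120503-135120532 on the plus strand for Runx3.
Runx1: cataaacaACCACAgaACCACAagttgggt
Runx2: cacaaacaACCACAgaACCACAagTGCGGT
Runx3: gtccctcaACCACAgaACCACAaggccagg

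The 18 bases hold a double TGTGGT motif. They were found in 4 of 32851 windows (0.0122%), a count that includes the Runx windows they were taken from. The fourth window belongs to Gm16225, a long noncoding RNA annotated on the opposite strand, whose window overlaps the distal window of Runx3. A double TGTGGT with this spacing, the starts 8 bases apart on 1 strand, lay in 7 windows (0.021%), the 4 above among them. At least 1 RUNX motif of any kind lay in 45.2% of all windows. The stretch begins at base 277 of the Runx1 window and at base 272 of the Runx2 window, after the start of the transcript, and at base 115 of the Runx3 window, before the start. The Runx3 window had 3 RUNX motifs in all, the Runx2 window 5 and the Cbfb window 1.

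The bases before the distal starts are shown for Runx1 and Runx3, the members measured here, because the genes differ in them. They are chr16:92826075-92826324 on the minus strand and chr4:135120395-135120644 on the plus strand.
Runx1: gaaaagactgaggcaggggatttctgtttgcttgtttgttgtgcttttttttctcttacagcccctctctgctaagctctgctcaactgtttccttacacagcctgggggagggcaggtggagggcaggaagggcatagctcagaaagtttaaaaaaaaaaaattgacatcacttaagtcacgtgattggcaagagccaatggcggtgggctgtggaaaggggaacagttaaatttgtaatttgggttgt
Runx3: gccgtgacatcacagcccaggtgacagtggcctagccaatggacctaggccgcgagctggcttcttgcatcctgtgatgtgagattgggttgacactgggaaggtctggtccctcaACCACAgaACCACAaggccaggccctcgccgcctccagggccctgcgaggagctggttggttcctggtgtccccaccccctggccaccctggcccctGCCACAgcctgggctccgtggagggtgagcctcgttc

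No RUNX motif of these 4 kinds lies in the Runx1 piece, and 3 lie in the Runx3 piece. The proximal windows of Runx1 and Runx3, 128.7 kb and 31.9 kb downstream, had 0 such motifs each. Neither the array rows nor these windows tell which start was used in the cells.

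**Figure D1:**
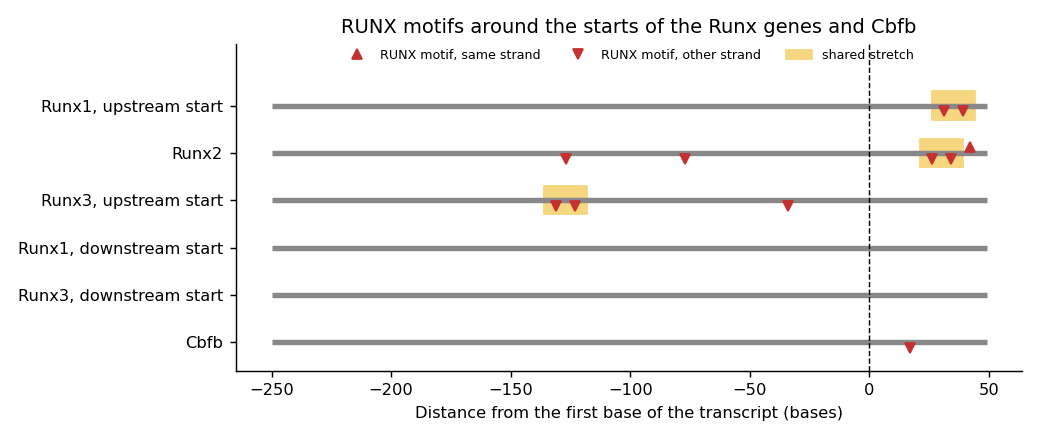
RUNX motifs (red triangles, up on the strand of the gene and down on the other) in 6 RefSeq promoter windows, by distance from the first base of the transcript in bases; upstream and downstream start are the distal and proximal one. The yellow stretch of 18 bases is shared by the distal windows of Runx1 and Runx3 and the window of Runx2, and the proximal windows hold 0 motifs.

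The arrays were checked before the comparison. The median log2 value ran from 4.15 to 4.35 over the 6 arrays. A value under 4.26, the median of the whole table, is called dim here, since the arrays carry no detection calls. The array of WT replicate 1 (WT1) did not match its sex label, with Xist at 10.6 against 3.31 to 3.4 on the other 5 arrays and the Y-linked Eif2s3y at 3.93 against at least 9.24. WT2 and KO2, the second arrays of the genotypes, stood farthest apart on the first principal component (scores -40.3 and 42.4, with 49.6% of the variance). The component also separated the genotypes, with WT1 and WT3 at -12.6 and -7.31 and KO1 and KO3 at 0.84 and 17.0. It is therefore not a measure of variation apart from genotype. The number of arrays limits the precision, and values without single arrays are given below.

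The row of Runx3 did not separate the genotypes. Its log2 values were 8.77, 8.26 and 9.16 on the WT arrays and 8.91, 9.11 and 9.27 on the arrays labelled Runx3-/-. WT3 was higher than 2 of the 3 arrays labelled Runx3-/-, and WT2 was the lowest of the 6. The mean was 8.73 ± 0.45 (SD, n = 3) in WT and 9.10 ± 0.18 (n = 3) in the others, a log2 difference of 0.37 (SE 0.24, 95% interval -0.21 to 0.95, adjusted p = 0.521 by limma). On a linear scale this is 1.29-fold, with an interval from 0.865-fold to 1.93-fold, which includes no difference. The row summarises probes along the transcript, and RNA of a disrupted gene may still be made, so the value does not check the genotype labels. Itgae and Cd4, which Runx3 is known to activate and to silence in CD8+ T cells, differed in those directions under the labels as given. On all 3 arrays labelled Runx3-/- Itgae was lower than on any WT array (-3.46, adjusted p = 0.038) and Cd4 higher (0.95, adjusted p = 0.25). Both were picked from a list of 16 tested known targets, of which 6 had groups that did not overlap. Of all tested genes, 22.4% had such groups. The arrays are called KO-labelled from here on, and every direction is the one the labels give. Without WT2 the difference of Runx3 was 0.13 (adjusted p = 0.867), and without WT3 it was 0.58 (adjusted p = 0.389).

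Runx1 was the member that changed. Its log2 values were 4.69, 4.45 and 4.64 on the WT arrays and 7.65, 7.42 and 8.22 on the KO-labelled arrays. All 3 WT values lay close above the dim level of 4.26, and the gap between the highest WT array and the lowest KO-labelled array was 2.73. Runx1 rose from 4.59 ± 0.13 (SD, n = 3) to 7.76 ± 0.41 (n = 3), a log2 change of 3.17 (SE 0.22, 95% interval 2.64 to 3.69, adjusted p = 0.00489 by limma). This is 8.99-fold on a linear scale (6.24-fold to 12.9-fold), and RMA values of dim rows are compressed, so that the fold is uncertain in size. Among 10021 tested genes its p-value ranked at number 4, whichever the direction. In the same fit 27 genes (0.269%) were called higher and 36 (0.359%) lower at an adjusted p of 0.05, 63 in all (0.629%), and 2249 genes (22.4%) had groups that did not overlap. The exact permutation test over the arrays gave p = 0.1, the smallest that 3 against 3 allow.

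Runx1 stayed past the threshold without each array in turn, with log2 changes from 2.94 without KO3, its highest array, to 3.34 without KO2, its lowest KO-labelled array, and adjusted p from 0.00938 to 0.0304. Without WT1, the array with the mismatched sex label, the change was 3.22 (adjusted p = 0.0275). The call was lost in an unmoderated linear model, in which 0 of all genes passed (adjusted p = 0.2 for Runx1, unadjusted p = 0.000219, while 508 genes passed the study's threshold, 1.5-fold at an unadjusted p of 0.05, which 832 genes or 8.3% passed in limma). In these bulk cultures more cells with Runx1 mRNA and more of it per cell cannot be told apart.

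**Figure D2:**
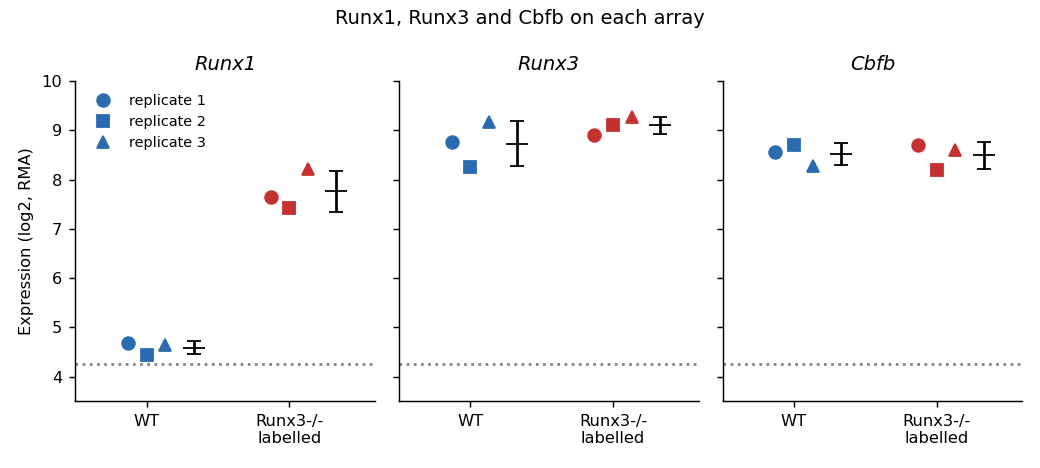
Log2 RMA expression (y axis) of Runx1, Runx3 and Cbfb on each array, WT in blue and KO-labelled in red, with symbols for replicates, black bars for the mean ± SD (n = 3) and a dotted line at 4.26, the median of all values. Runx1 lies between 4.45 and 4.69 in WT and between 7.42 and 8.22 in KO-labelled arrays, while the groups overlap for Runx3 and Cbfb.

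Cbfb, the partner that all Runx proteins share, did not pass the test. Its log2 values were 8.56, 8.70 and 8.27 on the WT arrays and 8.70, 8.19 and 8.6 on the KO-labelled arrays. The groups overlapped, and KO2 was the lowest array. The means of 8.51 ± 0.22 (SD, n = 3) and 8.49 ± 0.27 (n = 3) gave a log2 difference of -0.017 (SE 0.19, 95% interval -0.48 to 0.44, adjusted p = 0.979 by limma). On a linear scale the interval runs from 0.719-fold to 1.36-fold. The sign of the difference depended on single arrays, with values from -0.14 without WT3 to 0.14 without KO2. Of tested genes, 94.9% differed by at least as much between the genotypes as Cbfb, 26.1% by as much as Runx3 and 0.1% by as much as Runx1.

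**Figure D3:**
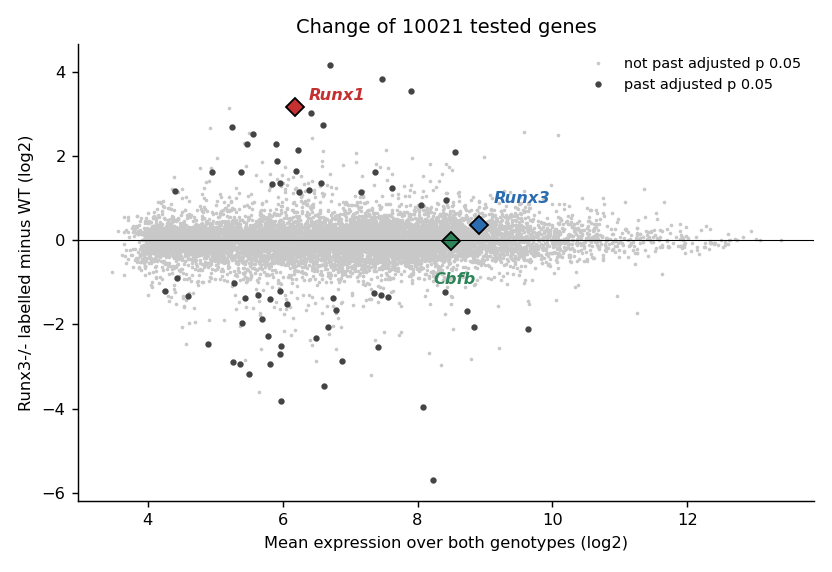
Log2 change (KO-labelled minus WT, y axis) against mean log2 expression over both genotypes (x axis) for 10021 tested genes, with the 63 genes past an adjusted p of 0.05 in black. Runx1 lies at 3.17 near the top of the cloud, and Runx3 (0.37) and Cbfb (-0.017) lie within it.

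**Figure D4:**
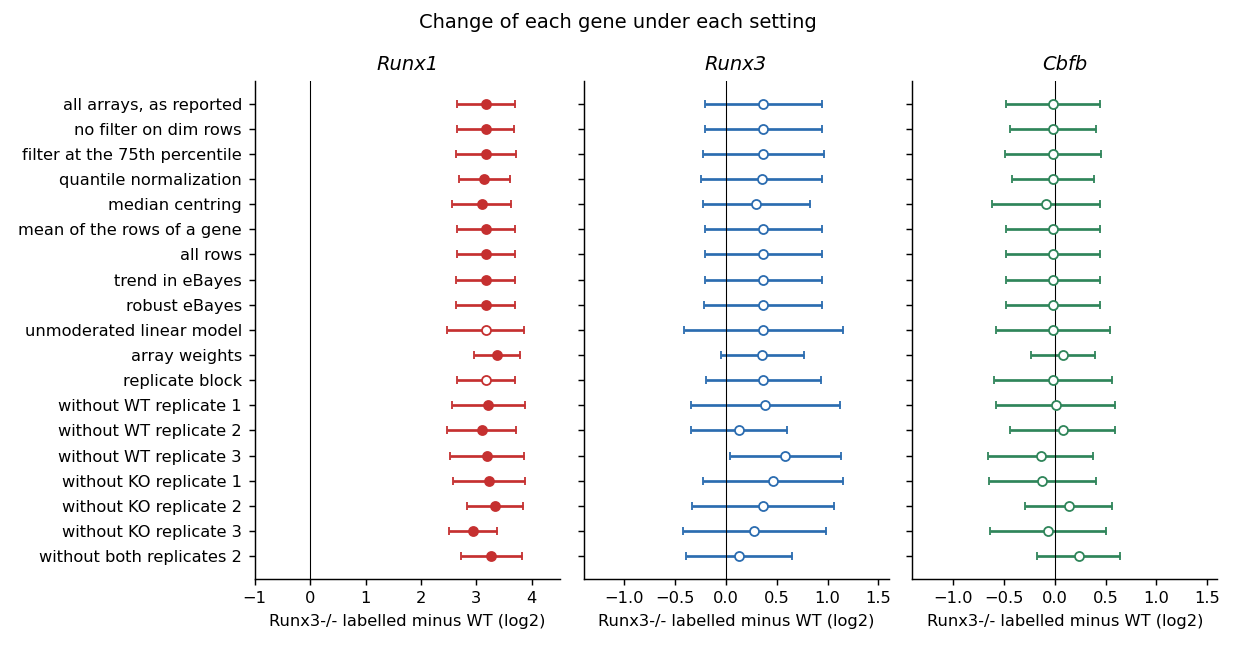
Log2 change of Runx1, Runx3 and Cbfb (points, with 95% intervals) with all arrays, with other settings of the fit and without single arrays; filled points are past an adjusted p of 0.05. Runx1 stays between 2.94 and 3.37, with open points for the unmoderated model and for the replicate number as a block, whereas the intervals of Runx3 and Cbfb include 0 in all settings but 1 (Runx3 without WT3, at 0.58).

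Among 9493 genes with ordinary names, the profile most like that of Runx1 over the 6 arrays was that of Tspan32, a tetraspanin. Likeness was measured as the root mean square difference in log2 units after each gene was centred on its own mean, and Tspan32 stood at 0.392 where the median gene stood at 1.62. Its log2 values were 5.87, 6.35 and 6.17 in WT and 9.45, 9.85 and 9.73 in KO-labelled arrays. Next came the extracellular matrix protein Ecm1 (0.417), the sialyltransferase St6gal1 (0.525), Dapl1 (0.526) and Msh5 (0.537), which encodes a meiotic member of the MutS family. In each of these the KO-labelled arrays lay above the WT arrays, and Msh5 differed by 2.31 but did not pass (adjusted p = 0.0682). The profile of Runx3 was matched most closely by Zfp36l1, an RNA-binding protein (0.0536), Klf13 (0.0564), Tet2, an enzyme of DNA demethylation (0.0640), Ripor2 (0.0790) and Bicra (0.0802), where the median gene stood at 0.407. WT2 was the lowest array for all 5 of them as for Runx3, and their differences of 0.28 to 0.46 did not pass. These profiles rest on the same arrays and are a description of them.

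Runx proteins repress or activate through cofactors, and none of those measured passed over all genes. The Groucho family members Tle1 and Tle2, corepressors that bind the C-terminal end of Runx proteins, were dim on every array. Tle3 stood at -0.11 (adjusted p = 0.736, log2 KO-labelled minus WT) and Tle4 at 0.47 (adjusted p = 0.342), with means of 7.39 in WT and 7.86 in KO-labelled arrays that did not overlap between groups. Of the ETO family, Cbfa2t2 stood at 0.31 and Cbfa2t3, above the dim level on KO2 alone, at 0.20, and Runx1t1 was dim on every array. Of 14 tested corepressors and coactivators, 0 were called by limma and 2 had an unadjusted p under 0.05, as 1413 of all 10021 tested genes had. Only 1 passed the study's threshold, which 3.97% of all genes passed upward and 4.33% downward. That gene was the histone methyltransferase Kmt2a (1.05, adjusted p = 0.332), with groups that overlapped, and without WT2 and KO2 it did not pass. The median of the list was 0.21 against -0.0145 over all tested genes, and without WT2 and KO2 it was 0.13 against 0.0205. Of the 14 genes, 5 (35.7%, against 10.6% of all tested genes) were lowest on WT2 and highest on KO2. The 10.6% covers genes of either direction, so it is not a matched share for a list whose median rose. Of 11 tested enzymes that modify Runx proteins, such as the ubiquitin ligases Smurf1 (0.01) and Smurf2 (-0.04), 0 were called, 0 had an unadjusted p under 0.05 and the median was -0.15. The smallest p was that of Cdk6, a cyclin-dependent kinase, at -0.88 (adjusted p = 0.356).

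Transcription factors that act beside Runx proteins in T cells passed the study's threshold more often upward than downward. Of 25 tested, 9 passed upward and 1 downward, where 3.97% and 4.33% of all genes did, and the median was 0.31. The mean level of the list was lowest on WT2 (7.57) and highest on KO2 (8.20), the arrays farthest apart on the first principal component. The same held for 9 of the 25 genes (36.0%, against 10.6% of all tested genes) and for 6 of the 9 that passed upward. The 10.6% covers genes of either direction, and a gene higher in KO-labelled arrays shows this order more easily. The shares thus do not tell how far the rise of the list rests on these 2 arrays. Without these 2 arrays 510 of all 10021 tested genes passed upward and 371 downward, and of the list 4 upward and 1 downward, with a median of 0.24. Those upward were Gata3, Zbtb7b and Ets2, and Tbx21, which did not pass with all arrays. The 1 downward was Jun, which did not pass with all arrays either. At an adjusted p of 0.05 only Ets2 of this list, an ETS factor, was called, as higher, where 0.269% of all genes were. Its change was 1.33 (SE 0.18, adjusted p = 0.038 by limma), with values of 5.07 to 5.38 in WT and 6.21 to 6.71 in KO-labelled arrays. Ets2 kept its direction without each array in turn (1.23 to 1.48) but its call only without KO2 (adjusted p from 0.0399 to 0.154), and it was called without both WT2 and KO2 (1.58, adjusted p = 0.0238). Gata3, the factor of helper cells, stood at 1.06 (adjusted p = 0.176), Smad3, a transducer of TGF-beta signals, at 0.66 (adjusted p = 0.157), and Ets1 at 0.75 (adjusted p = 0.245). The T-box factor Eomes, which drives effector and memory functions, was the gene that passed downward with all arrays (-1.76, adjusted p = 0.332). Without WT2 and KO2 Eomes did not pass. Its lowest value, 5.79 on KO3, lay far below those of KO1 (8.69) and KO2 (8.09). The study names several of these genes for these samples, and the list is no independent evidence of their direction.

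Known target genes of Runx proteins went both ways. Of 16 tested, 3 passed the study's threshold upward and 4 downward, where 3.97% and 4.33% of all genes did. The median was -0.31 against -0.0145 over all tested genes. At an adjusted p of 0.05 only Itgae of this list was called, as lower, where 0.359% of all genes were. Itgae encodes CD103, the integrin chain that anchors T cells to epithelium, and its values were 8.57, 8.87 and 7.61 in WT and 4.62, 4.23 and 5.82 in KO-labelled arrays (log2 change -3.46, SE 0.48, adjusted p = 0.038 by limma). Without each array in turn the change of Itgae was -3.92 to -3.13 and missed the threshold each time (adjusted p from 0.0525 to 0.124). It also did so without both WT2 and KO2 (-2.87, adjusted p = 0.1). Then 2 targets passed the study's threshold upward and 2 downward, and 510 and 371 of all 10021 tested genes did. Cd4 stood at 0.95 (adjusted p = 0.25) and Zbtb7b, which encodes ThPOK, at 0.64 (adjusted p = 0.342). Il7r, the receptor for IL-7, stood at 2.57 (adjusted p = 0.0718), with all KO-labelled arrays above all WT arrays. Gzmb (-1.73, adjusted p = 0.262) and Klrk1, the receptor NKG2D (-2.03, adjusted p = 0.194), were also past the study's threshold. Zbtb7b, Eomes and Foxp3 are in both lists, and several of these targets were likewise named by the study for these samples.

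**Figure D5:**
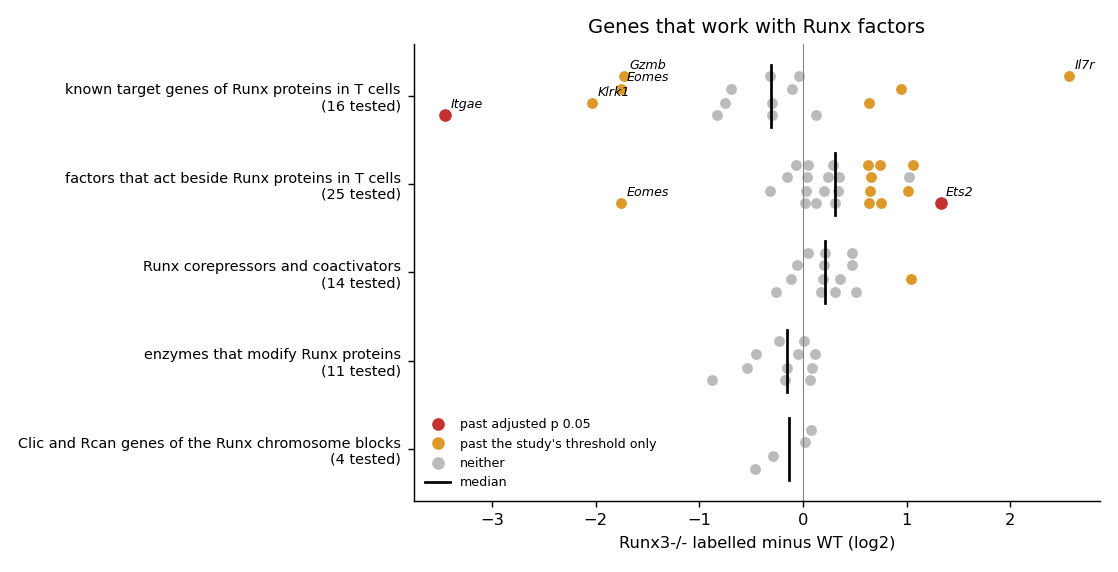
KO-labelled minus WT in log2 units (x axis) of each tested gene in 5 lists of genes that work with Runx factors or lie beside them, with the median of each list as a black line. Red points are past an adjusted p of 0.05 (Itgae at -3.46 and Ets2 at 1.33), orange points are past the study's threshold only, and the medians run from -0.31 to 0.31.

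None of the tested genes that lie beside the members on the chromosome was called by limma, as 0.629% of all tested genes were. Of all 10021 tested genes, 1413 had an unadjusted p under 0.05, and 8.3% passed the study's threshold in either direction. Each Runx gene stands next to a chloride channel gene of the Clic family and near an Rcan gene, and of these 6 genes 4 were tested and 0 were called (0 with an unadjusted p under 0.05, median -0.13). Clic6, the direct neighbour of Runx1, was dim on every array, Clic4 beside Runx3 stood at -0.46 (adjusted p = 0.668) and Clic5 beside Runx2 at 0.02. The smallest p was that of Rcan1, near Runx1 (-0.29, adjusted p = 0.387). Of the 20 protein-coding genes nearest to Runx1, 10 on either side, 11 were tested, and their differences lay between -0.64 and 0.26 where Runx1 rose by 3.17. None of them was called, and 1 had an unadjusted p under 0.05, namely Smim11 (-0.52, adjusted p = 0.188). Of 10 tested genes around Runx3, 0 were called, 2 had an unadjusted p under 0.05 and 1 passed the study's threshold. This was Nipal3, a magnesium transporter family member 5 genes away, at 7.35, 7.15 and 7.32 in WT and 6.48, 6.41 and 6.58 in KO-labelled arrays (-0.78, adjusted p = 0.0677). Around Runx2, 9 genes were tested, 0 were called, 1 had an unadjusted p under 0.05 and the same gene, Enpp4, passed the study's threshold (-0.74, adjusted p = 0.275). Around Cbfb, 6 genes were tested, 0 were called, 0 had an unadjusted p under 0.05, and the smallest p was that of the cell cycle regulator E2f4 (-0.26, adjusted p = 0.458).

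The markers of the labelled cell type were bright. The CD8 lineage genes Cd8a and Cd8b1 lay between 10.7 and 11.9 on all arrays, and Cd3g, of the T cell receptor complex, was the brightest of 8 measured T cell markers. The mean level of the T cell markers ran from 9.74 to 10.2 in WT and from 10.3 to 10.4 in KO-labelled arrays. Runx1 is also expressed in helper cells and in other blood lineages, and their markers are given beside it. The helper and regulatory list (8 measured, Ctla4 the brightest) had mean levels of 5.48 to 5.84 in WT and 5.68 to 5.82 in KO-labelled arrays, with Cd40lg, Il4 and Il17a dim on every array. Of its 5 tested members 0 were called by limma and 2 passed the study's threshold upward, as 3.97% of all tested genes did. These were Cd4 (0.95, groups apart) and Zbtb7b (0.64, groups overlapping), and without WT2 and KO2 only Zbtb7b passed. The megakaryocyte list (5 measured) lay at 4.33 to 4.38 and 4.41 to 4.49, with Itga2b, Pf4, Ppbp and Gp9 dim on every array. Its other member, Gata1, had values of 6.69 to 7.64 over all arrays and a difference of 0.41 (adjusted p = 0.428). Of markers of early T and stem cells, 5 of 7 were dim on every array, and these were Rag1, Rag2, Dntt, Ptcra and Cd34, while Cd1d1 was the brightest. Dim on every array were also 6 of 7 B cell markers (all but Cd79b), 8 of 10 dendritic cell markers (all but H2-Eb1 and Cd74), 6 of 7 monocyte and macrophage markers (all but Cd68), 5 of 6 neutrophil markers (all but Ly6g), 3 of 3 erythroid markers and 4 of 7 NK cell markers (Klrb1c the brightest). H2-Eb1 differed by 0.39 (adjusted p = 0.405 by limma) and Cd74 by 0.80 (adjusted p = 0.463). Cd74 stood at 5.735 on KO1, against 3.49 to 4.24 on the other arrays. Tested outside the helper list were 8 T cell, 2 CD8 lineage, 3 NK cell, 2 dendritic cell and 2 early T and stem cell markers. Of the B cell, megakaryocyte, monocyte and neutrophil lists 1 marker each was tested. Of these, 4 passed the study's threshold and 0 an adjusted p of 0.05 in limma, where 8.3% and 0.629% of all tested genes did. They were Cd5 of T cells (1.12, adjusted p = 0.216), Cd79b (-0.93, adjusted p = 0.148), Klrb1c (-1.56, adjusted p = 0.169) and the stem cell receptor Kit (-1.62, adjusted p = 0.0594). Without WT2 and KO2 these 4 passed too, as did Cd68 downward (-0.83) and Gata1 (0.70) and Ly6g (0.73) upward. Of all 10021 tested genes, 881 passed then. The part of all these markers in the rise of Runx1 was not tested.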

How the data were processed

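Total RNA of 3 WT and 3 KO-labelled cultures was hybridised to 6 Affymetrix mouse gene ST 1.0 arrays. The authors normalised the scanner files in Partek Genomics Suite with a GC-corrected RMA (robust multichip average), and the deposited values are log2, in 1 column for each array. For software versions and annotation, no source used here gives them. RMA gives no detection calls and compresses low values.

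Of 35399 rows, 21789 were paired with 1 gene symbol (19938 genes), 1621 with several, and 11989 were not named here. For each gene the row of highest mean was used, and it was tested if the highest of its 6 values reached 4.26, the median of all values. Arrays were compared with limma 3.58.1 in R 4.3.3 (lmFit and eBayes, no covariate, two-sided), with Benjamini-Hochberg adjustment over 10021 genes. Differences are KO-labelled minus WT. The replicates are individual mice. On simulated data for these genes, with noise drawn independently for each array, the fit called 52% of genes moved by a log2 change of 1. It called 100% of those moved by 3, with 10 calls among unchanged genes. The number of moved genes was set beforehand, and variation that the real arrays share was not simulated. These shares may therefore not hold for the real arrays.

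The members and lists were chosen with earlier results of these data known. Named in each list were called members or the smallest p, all Tle, Cbfa2t and Clic genes, the brightest marker and the 5 profiles nearest to Runx1 and to Runx3, while Smurf1, Smurf2, Runx1t1, Gata3, Smad3, Ets1, Eomes, Cd4, Zbtb7b, Il7r, Gzmb, Klrk1, Cd5, Kit, the dim markers, Xist, Eif2s3y and Gm16225 were chosen after their values or windows were seen. Tbx21, Jun, H2-Eb1 and Cd74 were also named after their values were seen. Chromosome order came from a RefSeq table (GRCm38.p6), used for names only, and promoter windows from RefSeq. The spacing of the double motif was set after the shared stretch was seen. Figures were drawn with matplotlib 3.10.9. Alternatives were filters, normalizations, rows, priors, weights, a test against a 1.5-fold change, the replicate number as a block and each array left out. Leaving out WT2 and KO2 together was chosen after the data were seen.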

Additional observations from a re-analysis of the deposited data

How the results depend on the processing

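The rise of Runx1 kept its direction under all 19 alternatives (2.94 to 3.37) and lost its call under 2 of them, the unmoderated model (3.17, adjusted p = 0.2) and the replicate block (3.17, adjusted p = 0.0742). Arrays of the same replicate number did not deviate together (correlations -0.13, -0.37 and -0.13 for numbers 1, 2 and 3), no array was most like its own number, and the numbers were not taken to pair the arrays. With the block 1 gene was called. Runx3 was called under none of the 19 (0.13 to 0.58). Cbfb changed sign with array weights (0.0804), without both arrays numbered 2, an alternative added after the data were seen (0.23), and without single arrays (-0.14 to 0.14), and was called under none. The count of 63 genes became 36 with no filter, 0 in the unmoderated model, 547 with array weights, 14 in the test against a 1.5-fold change and 9 to 67 without single arrays (WT1 left out 17, WT2 26, WT3 11, KO2 27 and KO3 9). At the study's threshold 832 genes passed, 508 in the unmoderated model, 231 in the test against a 1.5-fold change and 651 to 1258 without single arrays, the last without KO1. The split of 398 higher and 434 lower became 324 and 531 with median centring. Of 119 list medians under an alternative, 107 moved by less than 1 SD of the list mean between arrays. The others were the Clic and Rcan list and the genes beside Runx2 with a filter at the 75th percentile (-0.46 and -0.41), the genes beside Cbfb, Runx1 and Runx3 with no filter (0.0069, -0.0705 and -0.0679), and, without single arrays, the modifying enzymes (-0.20 to -0.0148), the helper markers (-0.0598 to 0.57), and the genes beside Runx1 (-0.32 to -0.15) and Runx3 (-0.31 to -0.0130). The cause of these shifts was not tested. Alternatives for Runx2 and for further rows of Runx1 and Runx3 were not run, since no such row was used here. Signal near background limits the WT level of Runx1.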

Other observations

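RUNX motifs of the 4 kinds named above are common near transcript starts. At least 1 lay in a promoter window of 4409 of 8060 tested genes with a window (54.7%), of 15 of 24 genes called higher in KO-labelled arrays (62.5%) and of 16 of 30 called lower (53.3%). These shares are a description of 300-base windows only, and no test was made of them.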
